A study of Mus musculus with 6 samples.

Results

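The genes that turn ammonia into urea, and their periportal partners in amino acid breakdown, were examined in whole-liver RNA of ethanol-fed mice with and without hepatocyte ACSS2. ACSS2 is the acetyl-CoA synthetase of the cytosol and nucleus. The 10 genes were picked by symbol from the 16135 genes of the deposited expression table. They are the urea cycle enzyme genes Cps1, Otc, Ass1, Asl and Arg1, the gene Nags for the synthase of the activator of CPS1, and the amino acid enzyme genes Gls2, Sds, Hal and Tat. All 10 were found in the table and all 10 passed the filter described below. ACSS2-HKO mice lack ACSS2 in hepatocytes and ACSS2-flox mice carry the floxed allele and served as controls (n = 3 libraries each). Mice of both genotypes received Lieber-Decarli ethanol diet over 10 days and then 1 ethanol binge, so no ethanol-free group enters these comparisons. The labels give neither the line that drives Cre nor the strain, sex or age of the mice. They also do not say that each library is its own animal, and the p-values then rest on a spread among libraries that may be technical in part.

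Ammonia released from amino acids enters the urea cycle in the mitochondria of hepatocytes. CPS1, which needs N-acetylglutamate made by NAGS, forms carbamoyl phosphate, and OTC joins it to ornithine to give citrulline. In the cytosol ASS1 and ASL add a second nitrogen from aspartate, and ARG1 splits arginine into urea and ornithine. These enzymes are richest in hepatocytes around the portal vein, together with the liver glutaminase GLS2, the serine dehydratase SDS, the histidine ammonia-lyase HAL and the tyrosine aminotransferase TAT. Hepatocytes around the central vein instead hold glutamine synthetase, which takes up ammonia that escapes the cycle. Glucagon and glucocorticoids are known inducers of many of these genes.

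Expression was read as FPKM, fragments scaled to the length of the gene and to the total of the library, as computed by the authors. Whole fragment counts recovered from the FPKM values implied 33717125 to 39474527 fragments per library. Each of the 10 genes held between 1693 and 165141 fragments per library, and counting error at the lowest of these is 2.43%. A pair of libraries stood apart on the first principal component of log2(FPKM + 1), which held 47.2% of the variance. ACSS2-HKO replicate 3 lay at 27.6 and ACSS2-flox replicate 1 at -47.7, with the remaining libraries between 2.51 and 8.49. In ACSS2-flox replicate 1 the longest 10% of genes read a median of -0.55 log2 units below the mean of the other ACSS2-flox libraries and the shortest 10% read 0.28 above it. The targeted gene Acss2 read 50.6, 38.4 and 45.7 FPKM in ACSS2-HKO, against 87.8, 61.5 and 58.5 FPKM in ACSS2-flox, and the groups did not overlap (log2 fold change -0.60 ± 0.21 SE, limma adjusted p = 0.637). The value covers the whole gene and all cells of the liver, and which exons are floxed is not stated in the labels.

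No change of the urea cycle or amino acid genes was detectable between ACSS2-HKO and ACSS2-flox livers. Differences were tested on log2(FPKM + 1) with limma over the 9818 genes whose mean over the 6 libraries reached 1 FPKM, and p-values were adjusted by the Benjamini-Hochberg method and called under 0.05. None of the 10 passed, and 0% of all tested genes did, with a smallest adjusted p of 0.452 among all genes and 0.714 among the 10. At an unadjusted p under 0.05, 0 of the 10 passed, against 745 genes or 7.59% of all tested, of which those higher in ACSS2-HKO made up 6.09% and those lower 1.5% of all tested. The values of the groups overlapped for all 10, whereas they did not overlap for 15.5% of all tested genes. The log2 fold change was positive for 6 and negative for 4 of the 10, with a median of 0.105, beside a median of 0.0985 over all tested genes, of which 66% were positive. The 95% intervals of all 10 fold changes included 1. They lay below a 2-fold increase for all 10 genes and above a 2-fold decrease for 9, the exception being Tat. In whole tissue, fewer cells of a type and less RNA per cell cannot be told apart.

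**Figure D1:**
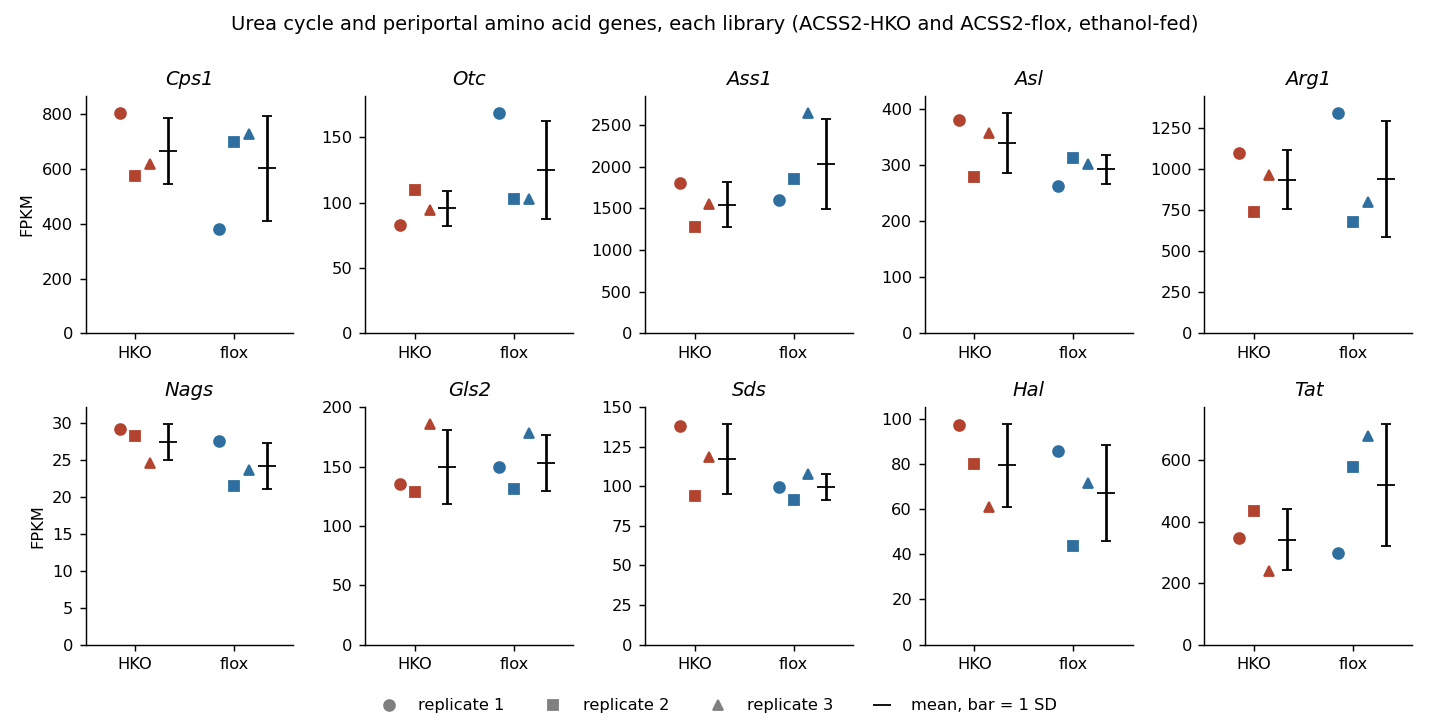
FPKM (y axis, from 0, own scale per gene) of each of the 10 genes in every library of ACSS2-HKO (left, red) and ACSS2-flox (right, blue), marker shape for the replicate and black bars for mean ± 1 SD of 3 libraries. The groups overlap in each panel, and for Tat the ACSS2-HKO libraries span 238 to 436 FPKM and the ACSS2-flox libraries 297 to 679.7 FPKM.

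The entry steps of the cycle sit in the mitochondrion. Cps1 (mm10 chromosome 1, 67123026 to 67231259) read 804, 575 and 618 FPKM in ACSS2-HKO, against 382, 699 and 727 FPKM in ACSS2-flox. The highest value was that of ACSS2-HKO replicate 1 and the lowest that of ACSS2-flox replicate 1, with the other 4 libraries between 575 and 727 FPKM. Its log2 fold change was 0.19 ± 0.29 (SE; limma adjusted p = 0.901), and without ACSS2-flox replicate 1 it was -0.11. Cps1 has the longest transcript of the 10 genes at 5646 bases, longer than 79.9% of tested genes, and ACSS2-flox replicate 1 is the library in which long genes read low. The part of gene length in its low value there was not tested.

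Otc, on the X chromosome (10252305 to 10321024), went the other way in the same library. It read 82.8, 109 and 94.5 FPKM in ACSS2-HKO, against 168, 103 and 103 FPKM in ACSS2-flox, so ACSS2-flox replicate 1 alone was high and the other 5 libraries lay together. Its gene length is 4757 bases, longer than 72.5% of tested genes. The means of 95.6 ± 13.3 and 125 ± 37.7 FPKM (ACSS2-HKO and ACSS2-flox, SD, n = 3 each) gave a log2 fold change of -0.35 ± 0.24 (SE; limma adjusted p = 0.737), and -0.12 without ACSS2-flox replicate 1. Nags (chromosome 11, 102145513 to 102149477), which makes the obligatory activator of CPS1 from acetyl-CoA and glutamate, had the lowest level of the 10 genes. It read 29.3, 28.4 and 24.7 FPKM in ACSS2-HKO, against 27.7, 21.5 and 23.7 FPKM in ACSS2-flox. The spread was small in both groups, and the 95% interval of the fold change ran from 0.855 to 1.49 (log2 fold change 0.17 ± 0.17 SE, limma adjusted p = 0.834). An antisense transcript is annotated over 698 bases of the Nags locus, and no label says whether the counting used strand.

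The cytosolic steps are run by ASS1, ASL and ARG1. Ass1 (chromosome 2, 31470207 to 31520672) had the highest level of the 10 genes and read 1805, 1270.2 and 1558 FPKM in ACSS2-HKO, against 1601, 1856 and 2642 FPKM in ACSS2-flox. Its lowest and second-lowest values were ACSS2-HKO libraries and its highest was ACSS2-flox replicate 3. The means were 1544 ± 267 FPKM in ACSS2-HKO and 2033 ± 543 FPKM in ACSS2-flox (SD, n = 3 each), the log2 fold change was -0.38 ± 0.27 (SE; limma adjusted p = 0.747), and the exact permutation p was 0.2. The fold change stayed negative in each of the 18 alternative settings tried, between -0.55 and -0.17. With median-ratio scaling the groups of Ass1 no longer overlapped, which made it 1 of 10, beside 7.65% of all tested genes that were lower without overlap under that scaling.

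Asl (chromosome 5, 130011258 to 130029247), the next enzyme, read 381, 279 and 358 FPKM in ACSS2-HKO, against 263, 313 and 302 FPKM in ACSS2-flox. The ACSS2-HKO libraries held both of the highest values and the second-lowest one, so the groups overlapped (log2 fold change 0.20 ± 0.20 SE, limma adjusted p = 0.83). Arg1 (chromosome 10, 24915221 to 24927484), which releases urea, read 1096, 740.3 and 965 FPKM in ACSS2-HKO, against 1339.7, 677 and 800.4 FPKM in ACSS2-flox. The highest and the lowest value were both ACSS2-flox libraries, and the group means were nearly the same at 934 ± 179.9 and 939 ± 353 FPKM (ACSS2-HKO and ACSS2-flox, SD, n = 3 each). The 95% interval of the Arg1 fold change, 0.638 to 1.65, does not show the groups to be alike, and the sign of its log2 fold change of 0.036 turned under 6 of the 18 alternatives. The second arginase gene Arg2, the isoform of tissues outside the liver, was at or below 0.787 FPKM in every library.

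**Figure D2:**
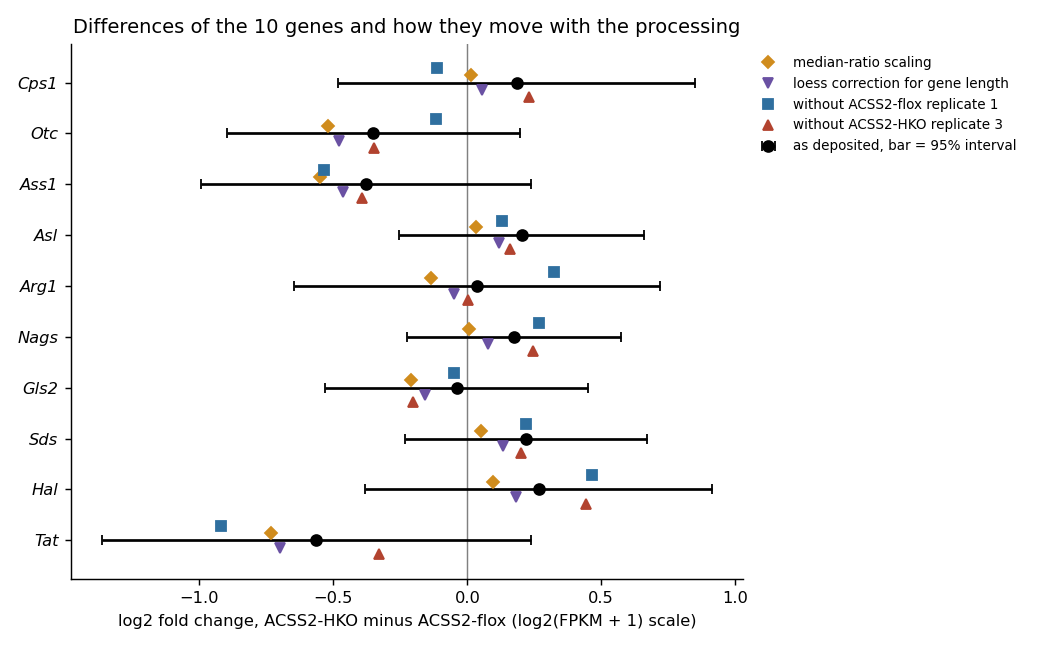
Log2 fold change of each of the 10 genes (x axis, ACSS2-HKO minus ACSS2-flox) with its 95% limma interval in black, and the same under 2 other scalings and without either of the 2 libraries that stood apart. All intervals cross 0. Cps1 lies at 0.19 as deposited and at -0.11 without ACSS2-flox replicate 1, while Otc, Ass1 and Tat lie left of 0 under every setting drawn.

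The amino acid enzymes at the periportal end were as variable. Tat (chromosome 8, 109990437 to 109999803), which starts the breakdown of tyrosine and is a classical glucocorticoid-induced gene, had the largest difference in size of the 10. It read 348, 436 and 238 FPKM in ACSS2-HKO, against 297, 578 and 679.7 FPKM in ACSS2-flox. Both of the highest values were ACSS2-flox libraries, but ACSS2-flox replicate 1 read lower than 2 of the 3 ACSS2-HKO libraries. The means were 341 ± 98.9 FPKM in ACSS2-HKO and 518 ± 198 FPKM in ACSS2-flox (SD, n = 3 each), a log2 fold change of -0.56 ± 0.35 (SE; limma adjusted p = 0.714; exact permutation p = 0.3). Leaving out ACSS2-flox replicate 1 gave a log2 fold change of -0.92, with an unadjusted limma p of 0.0149 and an adjusted p of 0.463. Leaving out ACSS2-flox replicate 3 or ACSS2-HKO replicate 3 gave -0.33 in both cases, with unadjusted limma p of 0.412 and 0.390. Over the 18 alternatives the adjusted limma p of Tat ran from 0.283 to 0.9995.

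Hal (chromosome 10, 93488768 to 93519304), which removes ammonia from histidine, read 97.2, 80.3 and 60.8 FPKM in ACSS2-HKO, against 85.9, 43.9 and 71.8 FPKM in ACSS2-flox. The groups were interleaved, with the single low value in ACSS2-flox replicate 2 (log2 fold change 0.27 ± 0.28 SE, limma adjusted p = 0.844). Sds (chromosome 5, 120476526 to 120483932), which makes pyruvate and ammonia from serine, read 138, 94.1 and 118 FPKM in ACSS2-HKO, against 99.3, 91.3 and 107 FPKM in ACSS2-flox. Its ACSS2-flox values lay close together, with the ACSS2-HKO values on both sides of the middle one (log2 fold change 0.22 ± 0.197 SE, limma adjusted p = 0.804). On the opposite strand Sds overlaps the antisense transcript Gm15690 over 1062 bases and the protein-coding gene Plbd2 over 651 bases, so some of its fragments could belong to these. Gls2 (chromosome 10, 128194457 to 128210004), the glutaminase that releases ammonia for CPS1, read 135, 128 and 186 FPKM in ACSS2-HKO, against 149, 131 and 178 FPKM in ACSS2-flox. Replicate 3 was the highest library of each group, and the log2 fold change was -0.039 ± 0.21 (SE; limma adjusted p = 0.972). Gls2 overlaps the protein-coding gene Spryd4 on the opposite strand over 97 bases.

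Promoter sequences from RefSeq (build GRCm38.p6, 250 bases before to 50 bases after the start site) were at hand for 5 of the 10 genes, Ass1, Tat, Hal, Nags and Otc. Those of Tat and Ass1 are printed because these genes had the most negative fold changes of the 10. Both lie on the plus strand, Tat at chr8:109990186-109990485 and Ass1 at chr2:31470020-31470319. Capitals mark the motifs found on either strand among the CCAAT box, the core promoter motif TATAAA, the E-box CACGTG, the cAMP response element half-site TGACG and the glucocorticoid response element half-site TGTTCT.
Tat promoter: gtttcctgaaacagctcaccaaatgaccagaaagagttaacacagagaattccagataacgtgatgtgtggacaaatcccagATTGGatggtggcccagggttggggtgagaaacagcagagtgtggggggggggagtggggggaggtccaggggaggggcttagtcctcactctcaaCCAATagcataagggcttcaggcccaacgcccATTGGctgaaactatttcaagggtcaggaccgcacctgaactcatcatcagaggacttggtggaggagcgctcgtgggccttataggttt
Ass1 promoter: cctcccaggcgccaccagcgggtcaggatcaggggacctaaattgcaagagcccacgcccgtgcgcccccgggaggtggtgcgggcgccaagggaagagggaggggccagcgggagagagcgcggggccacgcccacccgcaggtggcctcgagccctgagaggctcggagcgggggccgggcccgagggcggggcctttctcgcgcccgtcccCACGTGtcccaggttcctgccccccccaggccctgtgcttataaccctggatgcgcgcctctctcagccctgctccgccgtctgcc
The Tat window held CCAAT on either strand 3 times, starting 168, 72 and 40 bases before the start site, and 37.4% of the 32851 promoters of the table held at least 1. The Ass1 window held 1 E-box, 36 bases before the start site, a motif present in 7.15% of promoters. The marked motifs did not overlap each other. None of the other motifs searched is in these 2 windows, which says nothing of sites farther away. On either strand TATAAA was in 13.6% of promoters, TGACG in 20.8% and TGTTCT in 19.0%. The Hal window held CCAAT and TATAAA, the Nags window TGACG, and the Otc window none of the motifs. A match is a description of the letters and not a measured site of binding.

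Per unit of length the 10 genes spanned a wide range of levels. The means over all 6 libraries were 1789 FPKM for Ass1, 936 FPKM for Arg1, 634 FPKM for Cps1, 429 FPKM for Tat, 316 FPKM for Asl and 151 FPKM for Gls2. Below these came Otc at 110.2 FPKM, Sds at 108 FPKM, Hal at 73.3 FPKM and Nags at 25.9 FPKM. Even Nags was above 79.9% of the tested genes by mean level. Ass1 exceeded Arg1, Cps1 exceeded Tat, Asl exceeded Gls2, Sds exceeded Hal and Hal exceeded Nags in 6 of 6 libraries. Arg1 exceeded Cps1 in 5 of 6 libraries, Gls2 exceeded Otc in 5, Tat exceeded Asl in 4, and Otc exceeded Sds in 3, so these neighbours were not separated beyond their spread. The sum of the 5 cycle enzymes was 3579 ± 598 FPKM in ACSS2-HKO and 3993 ± 507 FPKM in ACSS2-flox (SD, n = 3 each; exact permutation p = 0.4).

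The 10 genes did not move as a block from library to library. ACSS2-HKO replicate 1 held the highest value of 5 of them (Cps1, Asl, Nags, Sds and Hal) and the lowest of 1 (Otc). ACSS2-flox replicate 2 held the lowest value of 4 (Arg1, Nags, Sds and Hal) and the highest of 0. The median deviation of the 10 genes from their own means was 0.22 in ACSS2-HKO replicate 1, -0.14 in ACSS2-HKO replicate 2 and -0.028 in ACSS2-HKO replicate 3. It was -0.054, -0.12 and 0.0104 in ACSS2-flox replicates 1, 2 and 3. ACSS2-flox replicate 1 held an extreme value for 4 of the 10, the highest for Otc and Arg1 and the lowest for Cps1 and Asl. The coefficient of variation was larger among ACSS2-flox than among ACSS2-HKO libraries for 7 of the 10 genes.

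**Figure D3:**
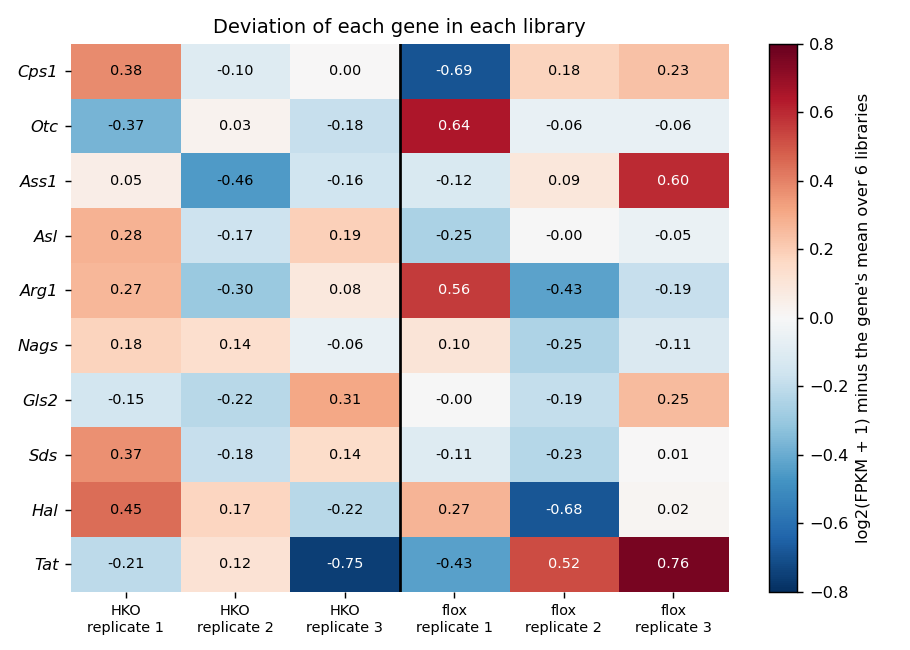
Log2(FPKM + 1) of each of the 10 genes (rows) in each library (columns, ACSS2-HKO left of the line and ACSS2-flox right of it) minus that gene's mean over the 6 libraries, red above and blue below the mean. Column patterns differ between genes: in ACSS2-flox replicate 1 Cps1 lies at -0.69 and Otc at 0.64.

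Ratios of genes within a library do not depend on how libraries are scaled to each other. The ratio of Ass1 to Asl, successive enzymes of similar length (1631 and 1891 bases), was 4.73, 4.56 and 4.35 in ACSS2-HKO, against 6.09, 5.93 and 8.74 in ACSS2-flox. The ACSS2-HKO ratios lay close together and below all ACSS2-flox ratios (4.55 ± 0.194 and 6.92 ± 1.58, SD, n = 3 each; exact permutation p = 0.1, the smallest that 3 against 3 allows). This ratio was singled out after its values were seen. Of the 45 ratios among the 10 genes, 5 or 11.1% had groups that did not overlap, those of Cps1 to Ass1, Cps1 to Tat, Otc to Nags, Ass1 to Asl and Ass1 to Sds. The same held for 17.8% of all pairs of the 1969 tested genes at or above the mean level of Nags, so the share among these genes is not above the background. The ratio of Cps1 to Otc, the mitochondrial pair, ran from 5.25 to 9.71 in ACSS2-HKO and from 2.27 to 7.05 in ACSS2-flox.

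**Figure D4:**
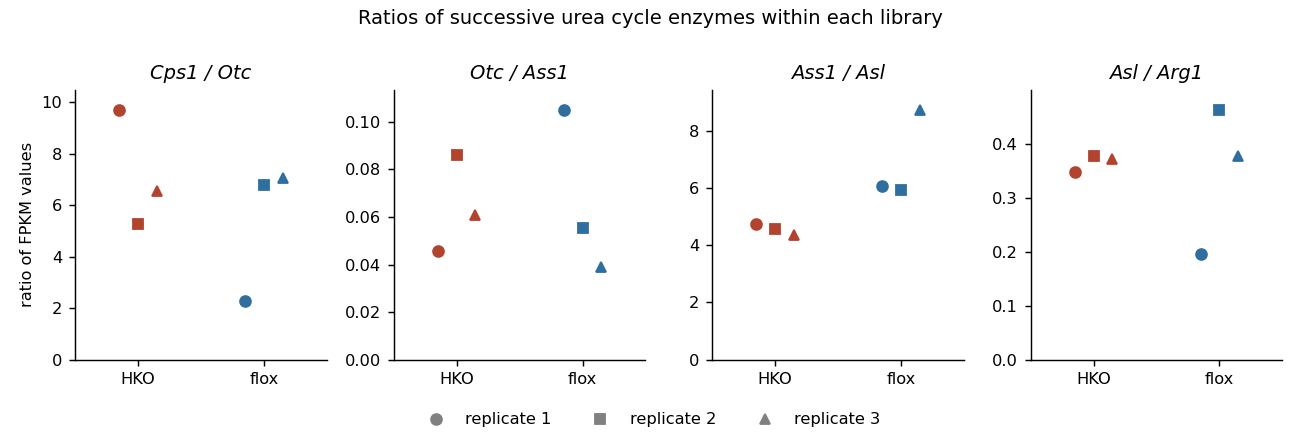
Ratio of FPKM values (y axis, from 0) of successive urea cycle enzymes within each library, ACSS2-HKO left in red and ACSS2-flox right in blue, marker shape for the replicate. The ratio of Ass1 to Asl lies between 4.35 and 4.73 in ACSS2-HKO and between 5.93 and 8.74 in ACSS2-flox, and the other 3 ratios overlap.

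Genes that feed nitrogen to the cycle or carry its intermediates also gave no call. Of 15 such genes 12 passed the filter, and 5 had positive and 7 negative log2 fold changes, with a median of -0.026 and 0 past the adjusted limma threshold. That median ran from -0.24 without ACSS2-HKO replicate 1 to 0.13 without ACSS2-HKO replicate 3. Rhbg, for an ammonia transporter of pericentral hepatocytes, had the smallest p of the list and read 20.04, 15.8 and 14.8 FPKM in ACSS2-HKO, against 5.32, 15.6 and 11.1 FPKM in ACSS2-flox. Its groups overlapped, with the lowest value in ACSS2-flox replicate 1 (log2 fold change 0.71 ± 0.33 SE, limma adjusted p = 0.664). Got1, for the cytosolic aspartate aminotransferase, also had a positive log2 fold change with overlapping groups (0.47 ± 0.34 SE, limma adjusted p = 0.747). The gene Slc25a13 for citrin, the carrier that exports aspartate for ASS1, read 39.2, 34.6 and 28.9 FPKM in ACSS2-HKO, against 43.5, 40.7 and 47.1 FPKM in ACSS2-flox. All 3 ACSS2-HKO values lay below the lowest ACSS2-flox value, as they did for 2.94% of all tested genes (log2 fold change -0.35 ± 0.18 SE, limma adjusted p = 0.67). Glul, the pericentral glutamine synthetase gene, read 502, 629 and 444 FPKM in ACSS2-HKO, against 568, 697 and 761 FPKM in ACSS2-flox, and its groups overlapped (log2 fold change -0.37 ± 0.22 SE, limma adjusted p = 0.706).

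Enzymes of amino acid breakdown other than the 10 genes were counted in 8 lists, by the amino acid they degrade. Of 61 tested genes 19 had positive and 42 negative log2 fold changes, with a median of -0.13 beside 0.0985 for all tested genes, and 0 passed the adjusted limma threshold. Values were lower in ACSS2-HKO with no overlap for 7 genes, or 11.5% beside 2.94% of all tested genes, and higher with no overlap for 4 genes, or 6.56% beside 12.5%. This background was not matched for level. The 61 genes lay at a median of 68.5 FPKM, and all tested genes at library medians of 5.20 to 7.09 FPKM. With median-ratio scaling the shares were 16.4% lower beside 7.65%, and 3.28% higher beside 6.37%. Over the 18 alternatives the median of the 61 ran from -0.30 to 0.0091, the highest being that without both ACSS2-HKO replicate 3 and ACSS2-flox replicate 1. In that setting the median of all tested genes was 0.031. With single libraries left out the median of the 61 ran from -0.26 to -0.035.

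The tyrosine pathway, which begins with TAT, held 7 tested genes, all with negative log2 fold changes (median -0.30) and 0 past the adjusted threshold. Their median lay at -0.16 when ACSS2-flox replicate 1 was left out and at -0.54 when ACSS2-flox replicate 2 was. Hpd, for the dioxygenase that follows TAT, read 1608, 1207 and 915 FPKM in ACSS2-HKO, against 2346, 1733 and 1814 FPKM in ACSS2-flox. The groups did not overlap, and the log2 fold change was -0.68 ± 0.27 (SE; limma adjusted p = 0.637), and with single libraries left out it ran from -0.89 to -0.48. All 5 tested proline and ornithine genes were negative too, with a median of -0.42 that was -0.198 without ACSS2-HKO replicate 2. Oat, the ornithine aminotransferase gene and a pericentral marker, read 337, 310.1 and 257 FPKM in ACSS2-HKO, against 439.5, 485 and 483 FPKM in ACSS2-flox, with no overlap (log2 fold change -0.64 ± 0.19 SE, limma adjusted p = 0.631). Prodh2, for a hydroxyproline dehydrogenase, had a log2 fold change of -0.43 ± 0.19 (SE), again with no overlap (limma adjusted p = 0.649).

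Among the remaining lists Gldc, which encodes the decarboxylase of the glycine cleavage system, stood opposite to most. It read 46.0, 40.2 and 45.9 FPKM in ACSS2-HKO, against 20.1, 28.2 and 26.4 FPKM in ACSS2-flox, with tight groups that did not overlap (log2 fold change 0.81 ± 0.19 SE, limma adjusted p = 0.554). The 11 tested serine, glycine and threonine genes were otherwise mixed, 4 positive and 7 negative, with a median of -0.198 that was 0.036 without ACSS2-flox replicate 1. Gcat and Dmgdh of this list were lower without overlap (log2 fold changes -0.39 ± 0.19 and -0.34 ± 0.18 SE, limma adjusted p = 0.668 and 0.677). Of 7 tryptophan genes 5 were positive, with a median of 0.157 that was -0.0036 without ACSS2-HKO replicate 2, among them Tdo2, the first enzyme of the pathway, and Qprt, each without overlap (log2 fold changes 0.27 ± 0.198 and 0.32 ± 0.17 SE, limma adjusted p = 0.757 and 0.682). The 3 histidine genes after Hal had a median of -0.053, the 5 lysine genes one of -0.13, the 18 branched-chain genes one of -0.096 and the 5 sulfur amino acid genes one of 0.024. Suox, of the sulfur list, was higher without overlap (log2 fold change 0.46 ± 0.199 SE, limma adjusted p = 0.649). Of the 8 amino acid transporter genes 3 were positive and 5 negative (median -0.202, and -0.342 to -0.158 with single libraries left out). The glutamine and neutral amino acid carriers Slc38a2, Slc38a3 and Slc38a4 were lower without overlap (log2 fold changes -0.75 ± 0.24, -0.35 ± 0.18 and -0.33 ± 0.17 SE, limma adjusted p = 0.637, 0.675 and 0.67). They were 3 of the 8 transporter genes, beside 2.94% of all tested genes that were lower without overlap.

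**Figure D5:**
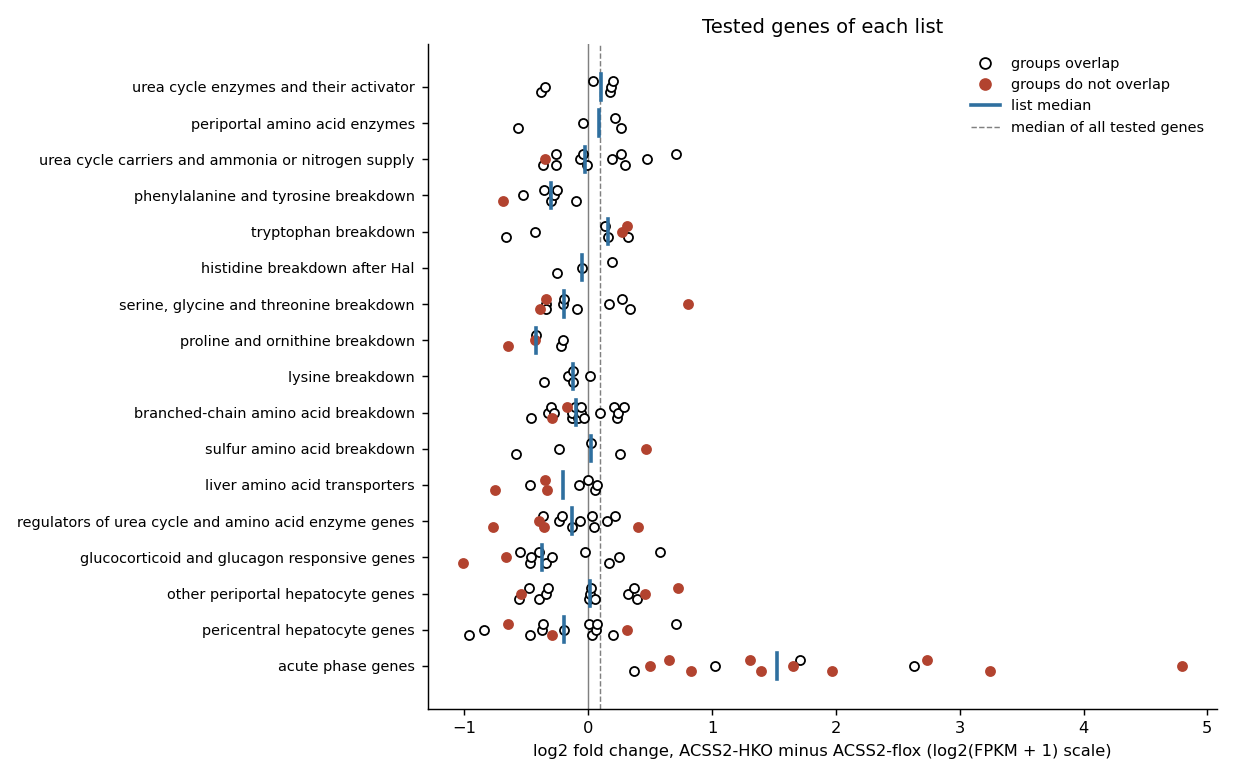
Log2 fold change (x axis, ACSS2-HKO minus ACSS2-flox) of every tested gene in each gene list (rows), filled red where the 2 groups of 3 libraries do not overlap and open where they do, with the list median in blue and the median of all tested genes (0.0985) dashed. The urea cycle and periportal amino acid genes are all open points, the proline and ornithine list has a median of -0.42 and the acute phase list one of 1.52.

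Transcription factors and hormone-responsive genes linked to these enzymes were read beside them. Cebpb, for a bZIP factor that acts on amino acid enzyme genes in hepatocytes, read 45.9, 43.5 and 60.9 FPKM in ACSS2-HKO, against 94.0, 85.9 and 77.0 FPKM in ACSS2-flox. The groups did not overlap (log2 fold change -0.77 ± 0.19 SE, limma adjusted p = 0.556), and the fold change lay between -0.94 and -0.68 in all settings. Cebpa had a smaller difference without overlap (log2 fold change -0.36 ± 0.17 SE, limma adjusted p = 0.664). Of the 13 tested regulators 5 were positive and 8 negative, with a median of -0.133 that ran from -0.296 without ACSS2-flox replicate 1 to 0.00076 without ACSS2-HKO replicate 3. Without overlap 3 of the 13 were lower and 1 higher, beside 2.94% and 12.5% of all tested genes. The glucagon receptor gene Gcgr and the glucocorticoid receptor gene Nr3c1 had log2 fold changes of 0.051 and -0.23 with overlapping groups. These 2 genes were named after their values were seen. Of 12 tested glucocorticoid or glucagon responsive genes 9 were negative, with a median of -0.37 that was -0.0904 without ACSS2-flox replicate 3. Per1 and Klf9 were lower without overlap (log2 fold changes -1.01 ± 0.17 and -0.67 ± 0.201 SE, limma adjusted p = 0.452 and 0.632). They were 2 of the 12, beside 2.94% of all tested genes that were lower without overlap. Per1 was a low gene, at 1.22 to 1.33 FPKM in ACSS2-HKO and 3.05 to 4.18 FPKM in ACSS2-flox. Over the alternatives that tested Per1 its log2 fold change ran from -1.48 to -0.45. Fkbp5, another glucocorticoid target, was positive at 0.58 ± 0.27 (SE; limma adjusted p = 0.661).

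Zonal markers showed no shared direction on the portal side. Of 15 other periportal genes 9 were positive and 6 negative (median 0.015), and of 15 pericentral genes 7 were positive and 8 negative (median -0.195, and 0.0033 without ACSS2-HKO replicate 3), with 0 past the adjusted limma threshold in either list. All 14 acute phase genes, which the liver makes in inflammation, had positive log2 fold changes (median 1.52, and 0.73 without ACSS2-HKO replicate 3), with 0 past the adjusted threshold. Its summed level was 14720.4, 18231 and 53637 FPKM in ACSS2-HKO, against 11724, 10371 and 9638 FPKM in ACSS2-flox. ACSS2-HKO replicate 3, the highest of these, was also the library with the lowest Tat. ACSS2-flox replicates 3 and 2, with the lowest sums, had the highest Tat (679.7 and 578 FPKM). The remaining libraries did not follow that order. ACSS2-flox replicate 1 had the second-lowest Tat (297 FPKM) at a sum of 11724 FPKM. ACSS2-HKO replicate 2 had a higher sum than ACSS2-HKO replicate 1 and also more Tat (436 against 348 FPKM). Summed neutrophil markers (10 genes, 4 tested) ranged from 39.0 to 356 FPKM in ACSS2-HKO and from 8.04 to 17.7 FPKM in ACSS2-flox, where the defining gene Ly6g was at 0 in all 3 libraries. Summed macrophage markers (12 of 12 positive) ranged from 882 to 2179.6 FPKM in ACSS2-HKO and from 466 to 756 FPKM in ACSS2-flox. The stellate, endothelial, cholangiocyte and lymphocyte lists had medians of 0.43, 0.48, 0.32 and 0.17 over 9, 7, 1 and 3 tested genes, and the 5 tested erythroid genes one of -0.46. The endothelial markers summed to 157, 128 and 139.8 FPKM in ACSS2-HKO, against 38.7, 160.3 and 192 FPKM in ACSS2-flox, and without ACSS2-flox replicate 1 their median was -0.25. The lymphocyte median was -0.19 and the cholangiocyte value 0.013 without ACSS2-HKO replicate 3, and the erythroid median was -0.023 without ACSS2-flox replicate 3. Of the hepatocyte markers, Alb and 6 others were in the table. They summed to 58631 to 65039 FPKM in ACSS2-HKO and 63443 to 97966 FPKM in ACSS2-flox. Their log2 fold changes were negative for 6 and positive for 1, Fgb (0.37), which is also on the acute phase list. The hepatocyte median was -0.31, beside -0.13 for the 61 amino acid breakdown genes, and this difference was not tested. Dropping any 1 library kept the hepatocyte median between -0.52 and -0.082, but among the 18 alternatives it reached 0.025. The part of these cell and inflammation markers in the values of the 10 genes was not tested.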

How the data were processed

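The deposited table holds 1 FPKM value per gene and library, computed by the authors, for 16135 genes and 6 libraries. Per the labels' protocols, the library kit was VAHTS Universal V6. The submitters' processing notes name the build mm10 and, with no role, the authors' tool DESeq2. For the aligner, counter, annotation and strand setting, nothing is stated in the sources used here. Whole fragments, gene lengths and library totals were recovered from the FPKM values for 16134 genes (99.99%, within 0.01 of a whole number or a relative 2e-08 of the count, whichever is larger), and the recovery was checked on simulated data. Columns were matched to samples by title and grouped by the genotype label. Coordinates are from GENCODE vM21 (GRCm38, the assembly of mm10).

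Log2(FPKM + 1) was tested with limma 3.58.1 in R 4.3.3 (trend, two-sided, Benjamini-Hochberg) over genes whose mean reached 1 FPKM. A pseudocount of 1 understates changes of low genes. Exact permutation tests used the 20 arrangements of the libraries, two-sided, with 0.1 as the smallest p. A positive log2 fold change means higher in ACSS2-HKO. An interval is a 95% limma interval of 1 gene. The limma step was tested on simulated data. The 10 genes, the lists and the rule for named genes (up to 4 of smallest p per list) were chosen with earlier results of these data known. Listed genes not in the table used here (Tdh, Gadl1, Tf and Ighm) were not analysed. Genes with the profile most similar to each of the 10 are given in the closing section.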

Additional observations from a re-analysis of the deposited data

How the results depend on the processing

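None of the 10 genes passed the adjusted limma threshold in any of the 18 alternatives, and the median log2 fold change of the 10 ran from -0.077 to 0.171. Over all genes the adjusted counts were 0 higher and 0 lower as reported, and 0 to 3 higher (3 without ACSS2-HKO replicate 2) and 0 lower with single libraries left out. Correlations of deviations from the group mean between libraries of like replicate number were 0.0132, 0.0032 and -0.063 for numbers 1, 2 and 3. Those between unlike numbers ran from -0.17 to 0.154. With 3 libraries per group such values cannot decide whether the numbers pair the samples. With the replicate number as a block 1 gene was higher and 3 lower, none of them among the 10. At an unadjusted p under 0.05 the counts were 598 higher and 147 lower as reported, 317 and 347 with median-ratio scaling, 397 and 392 with the length correction, 502 and 460 without ACSS2-flox replicate 1, 282 and 74 without ACSS2-HKO replicate 3, and 917 and 212 with no filter. The share of higher genes among them was 80.3% as reported and 47.7% with median-ratio scaling. With median-ratio scaling or without ACSS2-flox replicate 1, Tat passed the unadjusted threshold, and with array weights or without both distant libraries Tat and Hal did. Among the 9818 tested genes 753 were higher and 382 lower at that threshold with array weights, and 527 and 371 without both distant libraries. Median-ratio scaling put the median of all genes at -0.038, against 0.0985 as deposited, so signs of small differences followed the scaling. Cps1 turned to -0.0197 with array weights and -0.068 without both distant libraries. Arg1 turned to -0.134 with median-ratio scaling, -0.091 when M-values were trimmed and averaged instead, and -0.048 with the length correction, and Gls2 to 0.0034 as TPM. With single libraries left out Cps1 ran from -0.11 to 0.348, Arg1 from -0.168 to 0.324, Gls2 from -0.203 to 0.076, Hal from -0.0095 to 0.467 and Tat from -0.92 to -0.33. Each gene held at least 1693 fragments per library, and counting error at that count was 2.43%. The causes were not tested.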

Other observations

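For each of the 10 genes the tested genes with the most similar profile over the 6 libraries were listed. Likeness was the root mean square difference of log2(FPKM + 1) values, each gene centred on its own mean. The nearest gene to Cps1 was Sptbn1, a spectrin gene (difference 0.061), followed by Gtf3c4 (0.067). The nearest to Otc was Arf5 (0.070), to Ass1 Baiap2l1 (0.059), to Asl Cnot10 (0.037), to Arg1 Smim19 (0.059) and to Nags Wdr73 (0.036). Among the amino acid enzymes the nearest to Gls2 was Nbdy (0.061), to Sds Lyplal1 (0.063), to Hal Ctf1 (0.118) and to Tat Fgfrl1 (0.115). These are descriptions over 6 libraries chosen from 9818 genes, and none of the 10 genes was the nearest of another.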
